A study of Homo sapiens with 17 samples.

Results

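The regions described here are the human genome's copies of HERV-W, an endogenous retrovirus whose internal part is annotated as HERV17-int and whose long terminal repeat (LTR) is annotated as LTR17. They were taken as every locus of the deposited repeat table whose subfamily is HERV17-int or LTR17, which gave 1484 of 3594049 loci, 733 of HERV17-int and 751 of LTR17. The assay was RIP-seq, the capture of an RNA-bound protein on affinity media and the sequencing of what it holds, here with ORF1p or ORF2p of LINE-1 as the protein. The 17 libraries were 4 of ORF1p RIP, 4 of ORF2p RIP, 3 of mock IP and 6 of total RNA, all from N2102Ep, an established human embryonal carcinoma line, with no agent or genotype change named in the labels. The source label is embryonal for the ORF1p RIP and N2102Ep clone 2/A6 for all other libraries, so that label and the ORF1p RIP cannot be told apart. The repeat table holds no genes, so the line's identity was not checked against marker genes. Mock IP library names contain mIgG, and whether this control matches either RIP antibody is not stated. No label says that replicates came from separate cultures. A p-value here weighs a difference between groups only against the spread of libraries within groups, and that spread may be technical.

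A retrovirus that has entered the germ line is inherited as a provirus, an internal part with the viral genes between a pair of LTRs that hold its promoter. Recombination between the LTRs often leaves an LTR alone. HERV-W is known for copies of another kind, which LINE-1 proteins made by reverse transcription of HERV-W RNA and which therefore lack the outer stretches of the LTRs, as a processed pseudogene lacks its gene's promoter. One HERV-W provirus holds ERVW-1, the gene of syncytin-1, an envelope protein that fuses trophoblast cells in the placenta. ORF1p is an RNA-binding protein that coats LINE-1 RNA, and ORF2p is the LINE-1 endonuclease and reverse transcriptase.

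The annotated LTR17 lengths fell into separate classes. Of the 751 LTR17 loci, 416 were 700 to 800 bases long, which is the full length, 152 were 300 to 350 bases long and 74 were 450 to 560 bases long. Fragments of either subfamily on 1 strand and at most 1000 bases apart were joined into 735 elements, of which 435 were LTR17 alone. A further 26 elements had an internal part with a full LTR17 on both sides, the form of a provirus. In 133 elements the 3′ LTR17 was 300 to 350 bases long and the 5′ LTR17 was short or missing, the form described for copies made by LINE-1 proteins. The other 141 elements with an internal part fitted neither form.

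**Figure D1:**
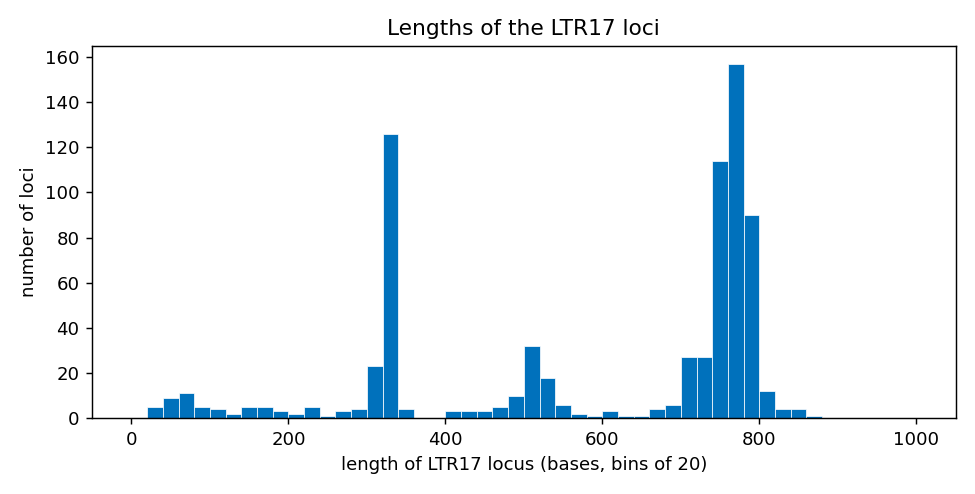
Lengths of the 751 LTR17 loci. The x axis is the length in bases in bins of 20, and the bars count loci. A peak of 416 loci lies at 700 to 800 bases, with smaller peaks of 152 loci at 300 to 350 bases and 74 loci at 450 to 560 bases.

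The element that holds ERVW-1 lies at chr7:92467999-92478192 (hg38, minus strand), inside the span of GATAD1 on the opposite strand. It is made of a 780-base LTR17 at the 5′ end, internal fragments of 703 and 7890 bases, and a 708-base LTR17 at the 3′ end. RefSeq (GRCh38.p14) places a start of ERVW-1 inside the internal part, and its promoter window, 250 bases before to 50 after that start, is shown because all 300 of its bases are HERV17-int sequence. It lies at chr7:92471375-92471674 on the minus strand and is printed 5′ to 3′ with matches to TATAAA and CCAAT in capitals.
ERVW-1 promoter window: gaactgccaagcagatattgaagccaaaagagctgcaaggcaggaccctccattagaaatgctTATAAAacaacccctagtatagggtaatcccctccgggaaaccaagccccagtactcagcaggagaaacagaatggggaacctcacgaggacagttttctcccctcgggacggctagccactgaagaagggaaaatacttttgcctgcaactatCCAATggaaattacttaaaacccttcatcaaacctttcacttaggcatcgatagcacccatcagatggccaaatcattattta
TATAAA was found at position 64 and CCAAT at position 218, counted from 1 at the 5′ end of the window, and the matches do not overlap. Searched on both strands, TATAAA occurred in 11.5% and CCAAT in 34.6% of the 35116 RefSeq promoter windows of that length. A match is a description of the letters and not a site.

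Only 1 other RefSeq promoter window overlapped a member by 1 base or more. It is that of SPINK8, named for a protease inhibitor family, at chr3:48333612-48333911 on the minus strand, where 191 of the 300 bases are HERV17-int and neither motif occurs. Sequences of the other members are not printed, since the window table is the only source of genomic sequence used here.

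Total repeat reads ran from 7693841 to 19670774 per library, and the members took 0.00826% to 0.0369% of them in each subfamily. Values are expected counts, estimated reads per locus, and a level in CPM is reads per 1000000 repeat reads after TMM scaling, which corrects each library's total. The 2 total RNA libraries whose names carry b (replicates 1 and 2) stood apart from the 4 whose names carry bl. HERV17-int was at 309 and 304 CPM in the b libraries and between 141 and 168 CPM in the bl libraries. ORF1p RIP replicate 3 was the lowest of its group for both subfamilies, at 149 CPM for HERV17-int and 102 CPM for LTR17. Replicates of a group differed beyond sampling noise in every pair.

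LTR17 RNA was more abundant in the ORF2p RIP than in the other groups, and HERV17-int RNA was called in no comparison with all libraries. LTR17 was at 170, 164, 102 and 169 CPM in the ORF1p RIP, 429, 288, 260 and 376 CPM in the ORF2p RIP, and 208, 163 and 192 CPM in the mock IP. In total RNA it was between 139 and 230 CPM, with a median of 166. Every ORF2p RIP library was above every library of the other groups. The fitted change of LTR17 in the ORF2p RIP over the ORF1p RIP was 1.16 ± 0.20 on the log2 scale (SE, 4 libraries each), a 2.23-fold difference (edgeR quasi-likelihood test, adjusted p = 0.000145). A call here is an adjusted p under 0.05 and at least a 2-fold change, and 18.9% of the 1074 subfamilies tested were called in that comparison. Scaled by library totals in place of TMM the change was 0.91 (adjusted p = 0.00404, edgeR), under 2-fold and so not called. Without ORF1p RIP replicate 3 it was 1.01.

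LTR17 passed the adjusted p but not the 2-fold limit in the ORF2p RIP against the other groups, where 8.19% of subfamilies were called over the mock IP and 6.42% over total RNA. Neither subfamily was called in the ORF1p RIP over the mock IP or total RNA, where 16.1% and 17.4% of subfamilies were, or in the mock IP over total RNA, where 0.745% were. The log2 change was 0.85 ± 0.22 in the ORF2p RIP over the mock IP (SE, adjusted p = 0.00775, edgeR) and 0.91 ± 0.18 over total RNA (SE, adjusted p = 0.000949, edgeR). In the ORF1p RIP it was -0.31 ± 0.22 over the mock IP (SE, adjusted p = 0.245, edgeR) and -0.25 ± 0.18 over total RNA (SE, adjusted p = 0.272, edgeR). Over total RNA without its b libraries the change in the ORF2p RIP was 1.12, past the 2-fold limit.

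HERV17-int was at 194, 188, 149 and 207 CPM in the ORF1p RIP, 222, 205, 198 and 211 CPM in the ORF2p RIP, and 267, 239 and 275 CPM in the mock IP. In total RNA it was between 141 and 309 CPM, with a median of 163. Every RIP library was below every mock IP library. The log2 change over the mock IP was -0.49 ± 0.25 in the ORF1p RIP (SE, adjusted p = 0.109, edgeR) and -0.32 ± 0.25 in the ORF2p RIP (SE, adjusted p = 0.348, edgeR). The b and bl libraries set the sign of its change over total RNA. In the ORF1p RIP it was -0.15 ± 0.21 with all 6 (SE, adjusted p = 0.573, edgeR) and 0.27 without the b libraries (adjusted p = 0.0103, edgeR). In the ORF2p RIP it was 0.03 ± 0.21 with all 6 (SE, adjusted p = 0.912, edgeR) and -0.55 without the bl libraries (adjusted p = 0.000478, edgeR).

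As a share of repeat reads, without TMM, LTR17 made up 0.0283% ± 0.00631 of the ORF2p RIP (SD, n = 4) and 0.0151% ± 0.00457 of the ORF1p RIP (SD, n = 4). The exact two-sided permutation test over libraries gave p = 0.0286, the smallest that 4 against 4 allows, and 0.16 after adjustment over the 12 share tests. The mock IP was at 0.0195% ± 0.00193 (SD, n = 3), and the exact p of the ORF2p RIP against it was 0.0571, the smallest that 4 against 3 allows. No share of HERV17-int or LTR17 passed after adjustment, with adjusted exact p from 0.16 to 0.81.

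**Figure D2:**
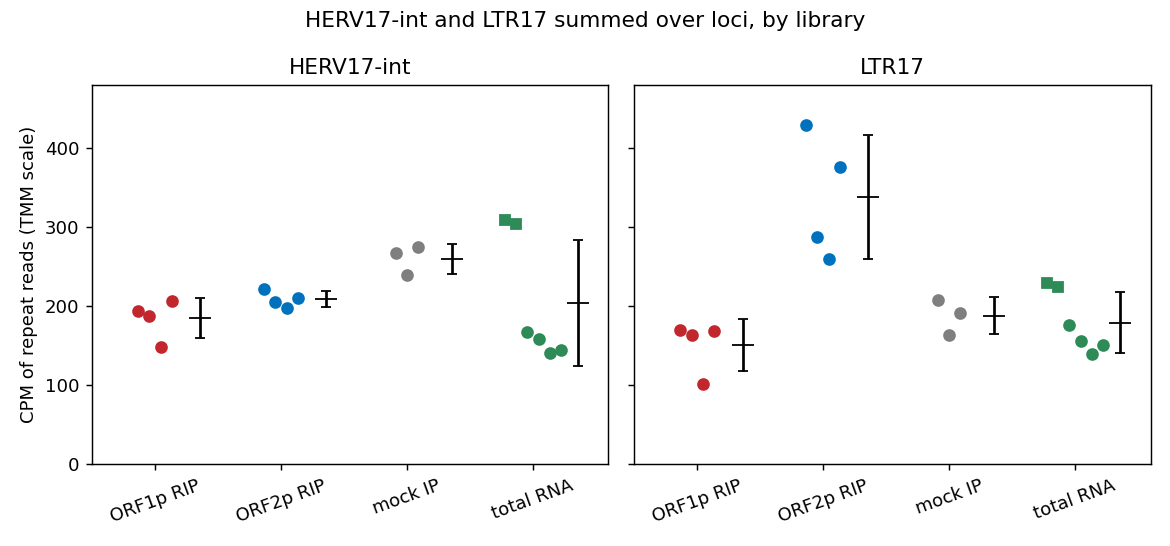
Levels of HERV17-int (left) and LTR17 (right) in CPM of repeat reads, with 1 point per library and the mean ± SD of each group as a bar with whiskers. In total RNA, squares are the b libraries and circles the bl libraries. LTR17 lies between 260 and 429 CPM in the ORF2p RIP, above every library of the other groups.

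A single locus carried much of the LTR17 signal of the ORF2p RIP. The 778-base LTR17 at chr5:12660382-12661159 (minus strand), inside the span of the long noncoding RNA gene LINC01194, stood at 196, 128, 110 and 175 CPM there. It was at 1.81, 0.764, 0 and 1.86 CPM in the ORF1p RIP and 19.3, 16.7 and 23.1 CPM in the mock IP. Total RNA lay between 29.1 and 43.9 CPM, with a median of 30.8. The groups did not overlap, with the ORF1p RIP lowest and the ORF2p RIP highest. The log2 change in the ORF2p RIP was 2.95 ± 0.50 over the mock IP (SE, adjusted p = 0.000107, edgeR) and 7.05 ± 0.55 over the ORF1p RIP (SE, adjusted p = 6.95e-10, edgeR). In the ORF1p RIP over the mock IP it was -4.10 ± 0.51 (SE, adjusted p = 4.51e-07, edgeR).

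Without that locus, LTR17 summed to 150 ± 32.0 CPM in the ORF1p RIP, 186 ± 38.3 in the ORF2p RIP, 168 ± 21.6 in the mock IP and 147 ± 40.2 in total RNA (SD, n = 4, 4, 3 and 6). The libraries of the ORF2p RIP, from 150 to 233 CPM, then overlapped those of every other group. No test was run on these sums, since the locus was left out after its level was seen.

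Reads were concentrated in few copies in every group. Over all libraries 274 of the 1484 loci were at 0 and 928 had under 10 reads in all. The element with the most reads took 20.4% of all member reads in the ORF1p RIP, 27.5% in the ORF2p RIP, 19.5% in the mock IP and 16.3% in total RNA. That element was a different one in each RIP, the copy in SLC16A10 in the ORF1p RIP and the LTR17 in LINC01194 in the ORF2p RIP. In the mock IP and in total RNA it was the copy in RIMKLB. The 10 leading elements of each group held 51.8% in the ORF1p RIP, 60.9% in the ORF2p RIP, 46.1% in the mock IP and 50.5% in total RNA. Between 7.93% and 42.8% of a library's member reads were at loci with whole values, and the rest were at loci with fractional values. How the authors' counting gave fractional values is not stated.

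The forms of HERV-W took different shares of the member reads in the ORF2p RIP, mostly through the LTR17 in LINC01194. Shares in the ORF1p RIP depended on the copy in SLC16A10. LTR17 alone held 33.7% ± 0.899 of member reads in the ORF1p RIP, 52.9% ± 4.0 in the ORF2p RIP, 30.3% ± 1.30 in the mock IP and 36.1% ± 5.33 in total RNA (SD, n = 4, 4, 3 and 6). Every ORF2p RIP library, from 48.8% to 57.5%, was above every other library. Elements with a short 3′ LTR17 held 53.0% ± 0.921 in the ORF1p RIP, 36.5% ± 2.43 in the ORF2p RIP, 52.4% ± 1.02 in the mock IP and 49.3% ± 4.99 in total RNA (SD). Elements with a full LTR17 on both sides held 2.37% ± 0.398 in the ORF1p RIP, 3.37% ± 0.427 in the ORF2p RIP, 6.37% ± 1.07 in the mock IP and 5.67% ± 0.318 in total RNA (SD). For them every RIP library was below every mock IP and total RNA library. Without the LTR17 in LINC01194, left out after its level was seen, LTR17 alone held 33.5% ± 1.01 in the ORF1p RIP, 35.1% ± 3.02 in the ORF2p RIP, 27.1% ± 1.58 in the mock IP and 29.7% ± 3.64 in total RNA (SD), and elements with a short 3′ LTR17 held 50.2% ± 1.48 in the ORF2p RIP and 54.8% ± 1.34 in the mock IP (SD). The ORF2p RIP libraries then overlapped the ORF1p RIP and total RNA libraries in the share of LTR17 alone, and stayed above all mock IP libraries. Elements with a full LTR17 on both sides were then at 4.65% ± 0.513 in the ORF2p RIP and 6.66% ± 1.11 in the mock IP (SD), and every RIP library was still below every mock IP and total RNA library. Without the copy in SLC16A10, also left out after its level was seen, elements with a short 3′ LTR17 held 40.9% ± 1.7 in the ORF1p RIP (SD). In the mock IP they then held 50.6% ± 1.16 (SD). LTR17 alone held 42.4% ± 1.66 in the ORF1p RIP and 31.4% ± 1.4 in the mock IP (SD). Without both copies LTR17 alone held 42.2% ± 1.78 in the ORF1p RIP and 35.8% ± 2.98 in the ORF2p RIP (SD). The mock IP was then at 28.2% ± 1.69 and total RNA at 30.9% ± 3.84 (SD). These shares are descriptions, with no test.

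At the level of elements, 65 of the 735 had enough reads to be tested, and 399 had under 10 reads over all libraries. LTR17 alone gave 20 tested elements of 435, and the form with a short 3′ LTR17 gave 32 of 133. The form with a full LTR17 on both sides gave 5 of 26, and the other elements with an internal part gave 8 of 141. Divergence from the consensus, as the locus names give it in parts per 1000 bases, was averaged over the fragments of an element by length. Its median over elements was 55.1 for those with a short 3′ LTR17 and 64.7 for those with a full LTR17 on both sides. It was 74.7 for the other elements with an internal part and 75.0 for LTR17 alone.

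Single copies differed between the groups about as often as repeat loci of all kinds did. In the ORF1p RIP over the mock IP, 18 of the 65 elements were higher and 28 lower, or 70.8% called, against 66.7% of the 122575 rows tested, 32.6% higher and 34.1% lower. Their median log2 change was -0.66, against 0.08 over all rows. In the ORF2p RIP over the mock IP, 8 were higher and 13 lower, or 32.3%, against 31.0% of all rows, 17.4% higher and 13.7% lower. For the ORF2p RIP over the ORF1p RIP the counts were 25 and 20, or 69.2%, against 68.2% of all rows, 36.7% higher and 31.5% lower. Against total RNA the ORF1p RIP had 19 elements higher and 27 lower, or 70.8%, beside 70.4% of all rows, 34.3% higher and 36.1% lower. The ORF2p RIP had 11 higher and 12 lower, or 35.4%, beside 42.3% of all rows, 21.1% higher and 21.2% lower. The comparisons share the mock IP or total RNA libraries. Each of these shares lies near or below its background.

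No element or locus was called in the mock IP over total RNA, where 5.13% of all rows were called by edgeR, 3.96% higher and 1.17% lower. At an unadjusted p under 0.05 there were 4 of 65 elements and 3 of 59 loci, and DESeq2 called 2 elements higher and no locus.

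**Figure D3:**
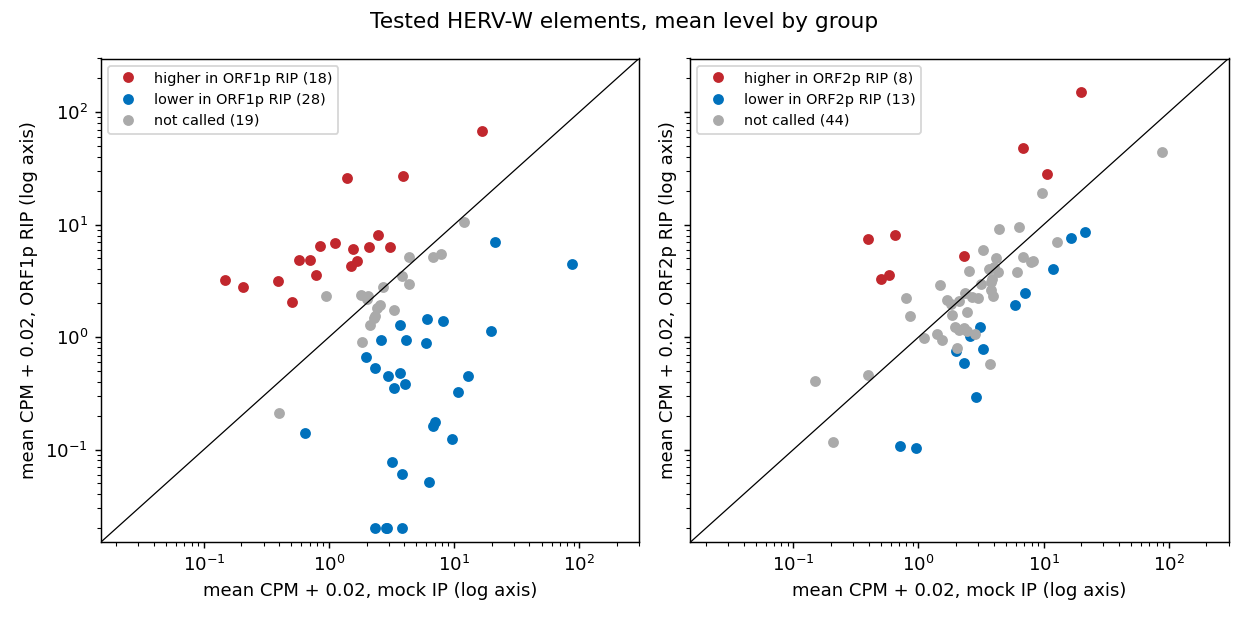
Mean CPM of the 65 tested elements in the ORF1p RIP (left) and the ORF2p RIP (right) against the mock IP, on log axes with 0.02 CPM added. Red points are called higher, blue points lower and grey points not called; the calls are 18 higher and 28 lower on the left and 8 higher and 13 lower on the right.

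Counted by single loci, 59 of the 1484 were tested, 31 of HERV17-int and 28 of LTR17. The ORF1p RIP over the mock IP had 15 higher and 32 lower, or 79.7% called, against 66.7% of the 122569 loci tested. The ORF2p RIP over the mock IP had 9 higher and 9 lower, or 30.5% against 31.0%. Scaled by library totals in place of TMM, the split was 5 higher and 16 lower, beside 18166 higher and 26756 lower of the 122569 loci. The ORF2p RIP over the ORF1p RIP had 29 higher and 14 lower, or 72.9% against 68.2%. Against total RNA the counts were 15 and 30 for the ORF1p RIP, or 76.3% against 70.4%, and 10 and 7 for the ORF2p RIP, or 28.8% against 42.3%. With library totals the ORF2p RIP split over total RNA was 7 higher and 19 lower, beside 20305 higher and 41625 lower of all loci. Fragments of 1 element are counted separately here, so these counts hold copies more than once.

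The ERVW-1 element was low in the ORF1p RIP, at 0.890, 0.147, 0 and 0.691 CPM. It was at 5.84, 7.48, 5.83 and 8.69 CPM in the ORF2p RIP and 10.7, 17.4 and 10.5 CPM in the mock IP. Total RNA lay between 5.18 and 11.2 CPM, with a median of 6.77. The ORF1p RIP libraries were below all others, the ORF2p RIP libraries were below the mock IP libraries, and the ORF2p RIP and total RNA overlapped. The log2 change in the ORF1p RIP was -4.83 ± 0.55 over the mock IP (SE, adjusted p = 1.46e-07, edgeR) and -4.02 ± 0.51 over total RNA (SE, adjusted p = 4.02e-07, edgeR). In the ORF2p RIP it was -0.88 ± 0.44 over the mock IP (SE, adjusted p = 0.137, edgeR) and 3.94 ± 0.53 over the ORF1p RIP (SE, adjusted p = 1.16e-06, edgeR).

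The 7890-base internal fragment, which spans the promoter window printed above, held 85% of the ERVW-1 element's reads. The LTR17 at the 5′ end held 10.2% and the one at the 3′ end 3.30%. Repeats of other subfamilies within 5000 bases of the element summed to 1.43 ± 0.618 CPM in the ORF1p RIP, 1.94 ± 0.619 in the ORF2p RIP and 4.35 ± 1.38 in the mock IP (SD, n = 4, 4 and 3).

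The copies with the highest levels in the ORF1p RIP lay both inside and outside gene spans. The element in SLC16A10, a transporter of aromatic amino acids, lies at chr6:111131018-111138073 on the gene's strand and has a short LTR17 at each end. It was at 66.7, 63.3, 57.9 and 83.6 CPM in the ORF1p RIP, 6.15, 7.89, 6.66 and 9.58 CPM in the ORF2p RIP, and 18.3, 15.2 and 16.2 CPM in the mock IP. Total RNA lay between 9.81 and 20 CPM, with a median of 11.8. The ORF1p RIP libraries were above all others and the ORF2p RIP libraries below all others. The log2 change was 2.04 ± 0.34 in the ORF1p RIP (SE, adjusted p = 2.22e-05, edgeR) and -1.12 ± 0.32 in the ORF2p RIP (SE, adjusted p = 0.0107, edgeR), each over the mock IP. Its 5955-base internal fragment held 82.7% of the reads.

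Solitary LTR17 copies were prominent too. The LTR17 at chrX:113897087-113897869, 13421 bases from the pseudogene QTRT1P1, was at 20.9, 24, 32.5 and 31.4 CPM in the ORF1p RIP, 2.66, 1.43, 2.23 and 2.81 CPM in the ORF2p RIP, and 7.41, 2.64 and 1.64 CPM in the mock IP. Its log2 change in the ORF1p RIP over the mock IP was 2.79 ± 0.46 (SE, adjusted p = 1.50e-05, edgeR). The LTR17 at chr1:68392126-68392789, 16464 bases from the pseudogene ELOCP18, was at 34.0, 31.3, 14.3 and 24.4 CPM in the ORF1p RIP, 1.5, 0.626, 0.419 and 1.60 CPM in the ORF2p RIP, and 1.82, 1.06 and 1.28 CPM in the mock IP. Its log2 change was 4.23 ± 0.55 (SE, adjusted p = 8.13e-07, edgeR). In both cases the ORF1p RIP libraries did not overlap those of any other group. Other repeats within 5000 bases of the copy near ELOCP18 summed to 4960 ± 2120 CPM in the ORF1p RIP and 171 ± 39.5 CPM in the mock IP (SD, n = 4 and 3).

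Smaller levels with large changes were seen at 3 further copies. The element in PRSS23, a serine protease gene, lies against the gene's strand at chr11:86833496-86836818 and averaged 3.18 ± 1.61 CPM in the ORF1p RIP and 0.128 ± 0.161 CPM in the mock IP (SD, n = 4 and 3), a log2 change of 4.54 ± 1.04 (SE, adjusted p = 0.000606, edgeR). The mock IP value rests on 6 reads. The LTR17 at chrX:113546689-113547605, 23504 bases from PPIHP2, averaged 2.80 ± 0.987 CPM in the ORF1p RIP and 0.187 ± 0.184 CPM in the mock IP (SD, n = 4 and 3), a change of 3.79 ± 0.88 (SE, adjusted p = 0.000652, edgeR), on 9 reads in the mock IP. The element in NRCAM, a neuronal cell adhesion gene, lies against the gene's strand at chr7:108337281-108344490. It averaged 0.0880 ± 0.110 CPM in the ORF2p RIP and 4.82 ± 0.521 CPM in the ORF1p RIP (SD, n = 4 each), a change of -5.57 ± 0.83 (SE, adjusted p = 3.93e-06, edgeR) in the ORF2p RIP over the ORF1p RIP.

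At the other end, 4 named copies had no read in any ORF1p RIP library. The LTR17 at chr2:80871315-80872071, 40378 bases from LOC105374827, was at 3.36, 3.40, 2.99 and 3.27 CPM in the ORF2p RIP and 2.65, 4.2 and 4.65 CPM in the mock IP. Against a floor of 3 reads over the group, the ORF1p RIP was at least 41.4-fold lower than the mock IP (adjusted p = 2.75e-08, edgeR), and the ORF2p RIP at least 35.1-fold higher than the ORF1p RIP (adjusted p = 2.95e-08, edgeR). The LTR17 in LOC105373143 (chr1:228953517-228954297) was at least 30.4-fold lower in that comparison with the mock IP, the LTR17 2891 bases from RPL6P21 (chr7:14066838-14067610) at least 31.1-fold lower, and the element 29487 bases from LINC01612 (chr4:170190193-170197104) at least 25.1-fold lower. Their adjusted p were 1.17e-05, 0.000254 and 2.42e-05 by edgeR.

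Other copies low in the ORF1p RIP were among the highest in the ORF2p RIP. The element in RIMKLB, a ligase gene, lies against the gene's strand at chr12:8761414-8768468. It was at 4.73, 6.48, 1.35 and 5.20 CPM in the ORF1p RIP, 51.7, 53.0, 33.3 and 40.5 CPM in the ORF2p RIP, and 89.0, 73.8 and 100 CPM in the mock IP. Total RNA was at 96.0 and 94.7 CPM in the b libraries and between 43.7 and 54.2 CPM in the bl libraries. The ORF1p RIP libraries were below all others. The log2 change over the mock IP was -4.30 ± 0.45 in the ORF1p RIP (SE, adjusted p = 3.98e-08, edgeR) and -0.97 ± 0.40 in the ORF2p RIP (SE, adjusted p = 0.0683, edgeR).

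The element 109 bases from ZNF99, a zinc finger gene, lies at chr19:22745377-22752074. It was at 0, 0.124, 0.161 and 0.132 CPM in the ORF1p RIP, 22.6, 12.1, 18.1 and 23.4 CPM in the ORF2p RIP, and 10.6, 8.40 and 9.79 CPM in the mock IP. With 3 reads in the ORF1p RIP, its level there was 0.00967 of that in the mock IP, with a 95% interval from 0.00199 to 0.0284 for counting error only. The ORF2p RIP libraries were above all mock IP libraries, but the log2 change of 0.99 ± 0.41 did not pass (SE, adjusted p = 0.069, edgeR). The element 68428 bases from PYDC2-AS1 (chr3:191658784-191665592) averaged 0.304 ± 0.241 CPM in the ORF1p RIP, 28.2 ± 1.97 in the ORF2p RIP, 10.7 ± 2.60 in the mock IP and 12.5 ± 4.99 in total RNA (SD, n = 4, 4, 3 and 6). It rose in the ORF2p RIP over the mock IP by 1.40 ± 0.42 on the log2 scale (SE, adjusted p = 0.0146, edgeR). That call was lost without mock IP replicate 1 (adjusted p = 0.0701) or replicate 2 (adjusted p = 0.0667).

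Large rises in the ORF2p RIP over the mock IP were seen at single copies. The LTR17 at chr13:56046278-56046739, 45828 bases from the pseudogene HNF4GP1, was at 0.107, 0, 0 and 0.456 CPM in the ORF1p RIP, 60.3, 44.2, 34.6 and 51.5 CPM in the ORF2p RIP, and 7.01, 6.17 and 7.17 CPM in the mock IP. Total RNA lay between 5.53 and 9.63 CPM, with a median of 7.12. The ORF2p RIP libraries were above all others and the ORF1p RIP libraries below all others. The log2 change was 2.81 ± 0.44 in the ORF2p RIP over the mock IP (SE, adjusted p = 4.97e-05, edgeR) and -5.40 ± 0.56 in the ORF1p RIP over the mock IP (SE, adjusted p = 4.38e-08, edgeR). Other repeats within 5000 bases summed to 279 ± 32.5 CPM in the ORF2p RIP and 259 ± 4.35 CPM in the mock IP (SD, n = 4 and 3). The repeats around this copy thus did not differ by 2-fold between those 2 groups. They did differ by more from the other groups, at 32.0 ± 16.7 CPM in the ORF1p RIP and 98.2 ± 10.5 CPM in total RNA (SD, n = 4 and 6).

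The element in ARMH4, at chr14:58122281-58126144 against the gene's strand, was at 9.63, 4.2, 5.48 and 10.7 CPM in the ORF2p RIP and 0.194, 0.549 and 0.384 CPM in the mock IP. Its log2 change was 4.32 ± 0.63 (SE, adjusted p = 2.24e-05, edgeR), and in the ORF1p RIP over the mock IP it was -0.77 ± 0.76 (SE, adjusted p = 0.381, edgeR). The repeats around it rose too, from 1.5 ± 0.402 CPM in the mock IP to 16.2 ± 2.72 CPM in the ORF2p RIP within 5000 bases (SD, n = 3 and 4). The LTR17 at chr12:47252699-47253458, 2238 bases from LOC105369746, was at 11.7, 5.62, 6.65 and 8.11 CPM in the ORF2p RIP and 0.589, 0.488 and 0.794 CPM in the mock IP, a change of 3.64 ± 0.64 (SE, adjusted p = 0.000172, edgeR). Its neighbours within 5000 bases also rose, from 4.91 ± 0.344 CPM in the mock IP to 98.1 ± 18.5 CPM in the ORF2p RIP (SD). The LTR17 at chrX:121356242-121357005, 13967 bases from MIR3672, had 1 read in the ORF1p RIP and averaged 9.46 ± 4.07 CPM in the ORF2p RIP, 6.30 ± 1.77 in the mock IP and 4.83 ± 3.40 in total RNA (SD, n = 4, 3 and 6). Its log2 change in the ORF2p RIP over the mock IP was 0.58 ± 0.52 (SE, adjusted p = 0.421, edgeR).

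Some copies fell in the ORF2p RIP over the mock IP. The element in AGPS, a gene of ether lipid synthesis, lies against the gene's strand at chr2:177409245-177413158. It was at 0.213, 0.123, 0 and 0 CPM in the ORF2p RIP and 1.02, 0.508 and 1.25 CPM in the mock IP, a ratio of 0.0791 with a 95% interval from 0.0157 to 0.248 for counting error only, on 3 reads in the ORF2p RIP (adjusted p = 0.0075, edgeR). The LTR17 in TBC1D5, a gene of endosome trafficking, lies on the gene's strand at chr3:17735447-17736208 and averaged 0.759 ± 0.600 CPM in the ORF2p RIP and 3.28 ± 0.334 CPM in the mock IP (SD, n = 4 and 3), a log2 change of -2.17 ± 0.57 (SE, adjusted p = 0.00546, edgeR). The LTR17 near RPL6P21 named above changed by -3.22 ± 0.98 (SE, adjusted p = 0.0166, edgeR).

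Some copies were high in several groups. The element in RAB27A, a gene of vesicle secretion, lies on the gene's strand at chr15:55304882-55312376. It averaged 10.5 ± 2.63 CPM in the ORF1p RIP, 4.04 ± 2.00 in the ORF2p RIP, 11.9 ± 2.10 in the mock IP and 8.22 ± 3.22 in total RNA (SD, n = 4, 4, 3 and 6). It fell in the ORF2p RIP over the mock IP by 1.54 on the log2 scale (SE 0.41, adjusted p = 0.00587, edgeR), and its change in the ORF1p RIP was -0.18 ± 0.40 (SE, adjusted p = 0.701, edgeR). The LTR17 at chr9:2264226-2264991, 21607 bases from LOC107987043, averaged 6.96 ± 0.964 CPM in the ORF1p RIP, 8.65 ± 1.60 in the ORF2p RIP, 21.2 ± 1.72 in the mock IP and 24.8 ± 5.43 in total RNA (SD). It was lower in each RIP than in the mock IP, with log2 changes of -1.61 ± 0.31 in the ORF1p RIP (SE, adjusted p = 9.78e-05, edgeR) and -1.29 ± 0.31 in the ORF2p RIP (SE, adjusted p = 0.00255, edgeR).

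The remaining 3 named copies were lowest in the ORF2p RIP. The LTR17 in LINC01339 (chr5:90187896-90188673) averaged 6.35 ± 0.545 CPM in the ORF1p RIP, 1.20 ± 0.290 in the ORF2p RIP, 3.08 ± 0.247 in the mock IP and 2.97 ± 1.14 in total RNA (SD, n = 4, 4, 3 and 6). The element in RASAL2, a gene of a RAS GTPase-activating protein, lies against the gene's strand at chr1:178141219-178143059. It averaged 8.03 ± 3.42 CPM in the ORF1p RIP, 1.11 ± 0.809 in the ORF2p RIP, 2.44 ± 0.762 in the mock IP and 3.14 ± 2.56 in total RNA (SD). The element in LOC124900697 (chr4:42285438-42292896), with a full LTR17 on both sides, averaged 2.15 ± 0.911 CPM in the ORF1p RIP, 0.737 ± 0.139 in the ORF2p RIP, 1.98 ± 1.10 in the mock IP and 2.28 ± 0.430 in total RNA (SD). In the ORF2p RIP over the ORF1p RIP their log2 changes were -2.42 ± 0.37, -2.87 ± 0.60 and -1.57 ± 0.45 (SE), each of them called, with adjusted p of 5.97e-06, 0.000232 and 0.00354 by edgeR.

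**Figure D4:**
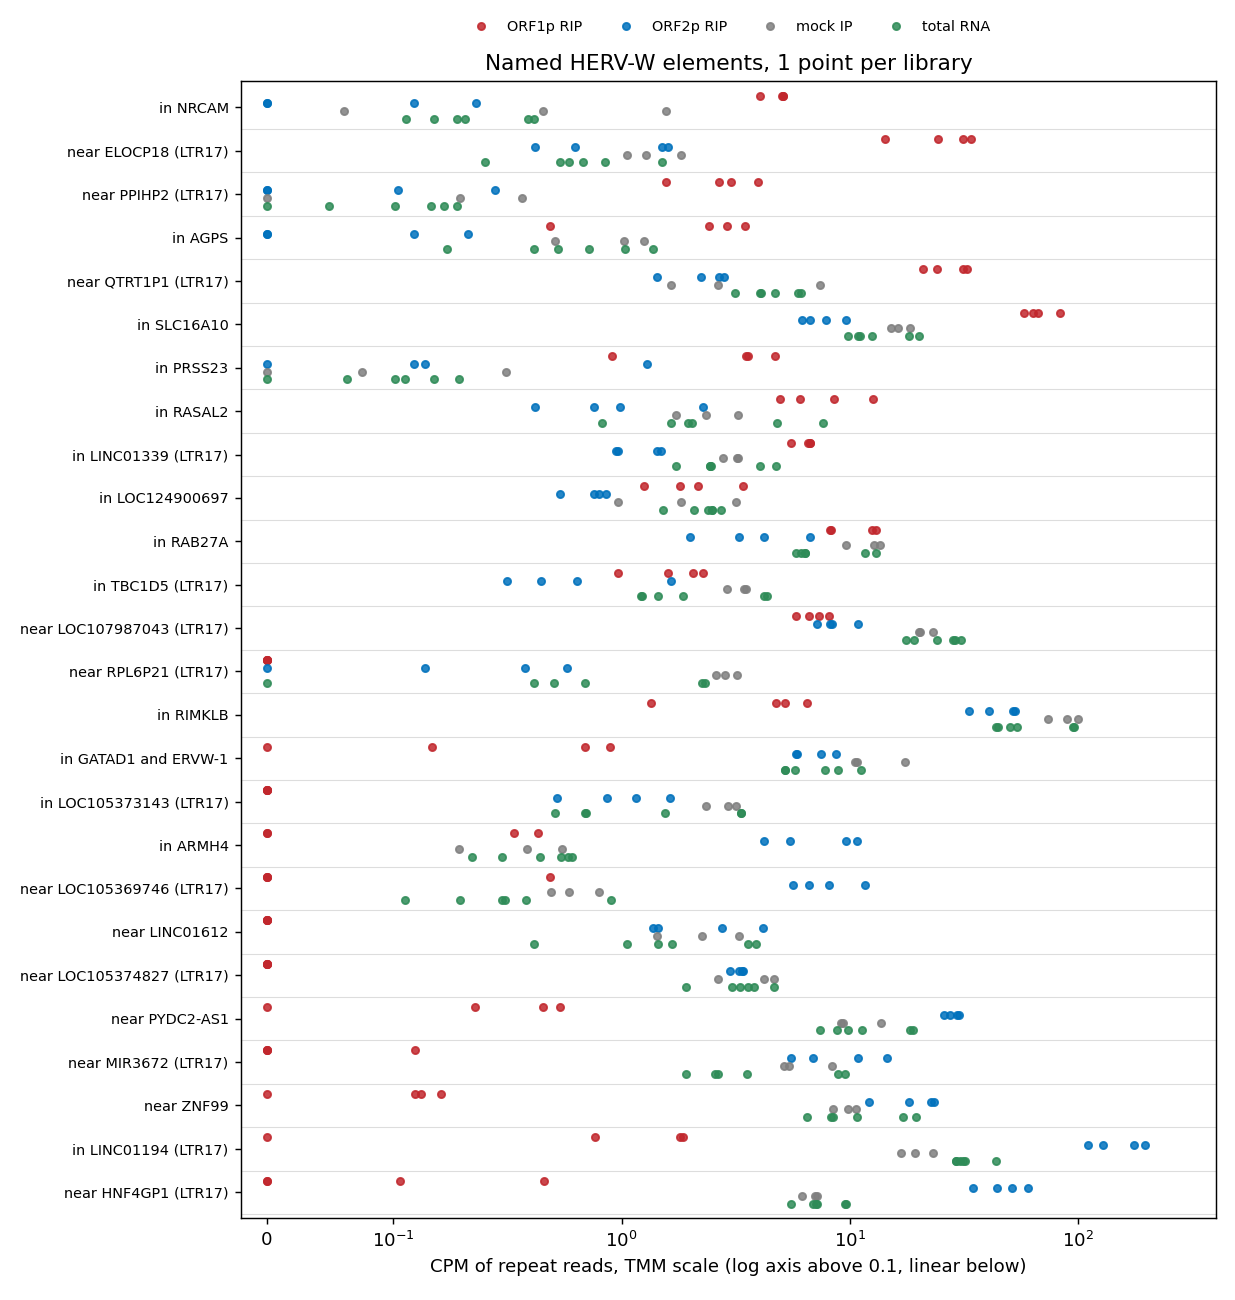
Levels of the 26 named HERV-W elements in every library, 1 row per element and 1 point per library, coloured by group. The x axis is CPM of repeat reads, logarithmic above 0.1 and linear below. The copy in SLC16A10 stands at 57.9 to 83.6 CPM in the ORF1p RIP and the LTR17 in LINC01194 at 110 to 196 CPM in the ORF2p RIP.

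Repeats of other subfamilies next to the called elements moved with most of them in the ORF1p RIP, while in the ORF2p RIP over the mock IP this depended on the window. Of the 46 elements called in the ORF1p RIP over the mock IP, 39 had other repeats within 5000 bases that differed by at least 2-fold the same way when summed, and 1 had them differ the opposite way. That exception, chosen after its values were seen, is the element 51659 bases from TBX22 (chrX:79955891-79963094). Its log2 change was 3.07, while its neighbours averaged 0 CPM in the ORF1p RIP and 0.241 CPM in the mock IP. In the ORF2p RIP over the mock IP the neighbours of 13 of 21 called elements moved the same way, and in the ORF2p RIP over the ORF1p RIP those of 36 of 45. Within 20000 bases the counts were 34 of 46 in the ORF1p RIP over the mock IP, 8 of 21 in the ORF2p RIP over the mock IP and 36 of 45 in the ORF2p RIP over the ORF1p RIP. The same was not counted for elements not called or for other repeats, so these counts have no background share. Of all rows tested, 66.7% were themselves called in the ORF1p RIP over the mock IP. Within 5000 bases of the copy in LINC01194, other repeats summed to 1280 ± 38.7 CPM in the ORF2p RIP and 571 ± 38.3 CPM in the mock IP (SD, n = 4 and 3). In the ORF1p RIP they summed to 10.4 ± 4.22 CPM (SD, n = 4). The table holds no genes, so whether these reads belong to longer transcripts that run through the elements was not tested.

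**Figure D5:**
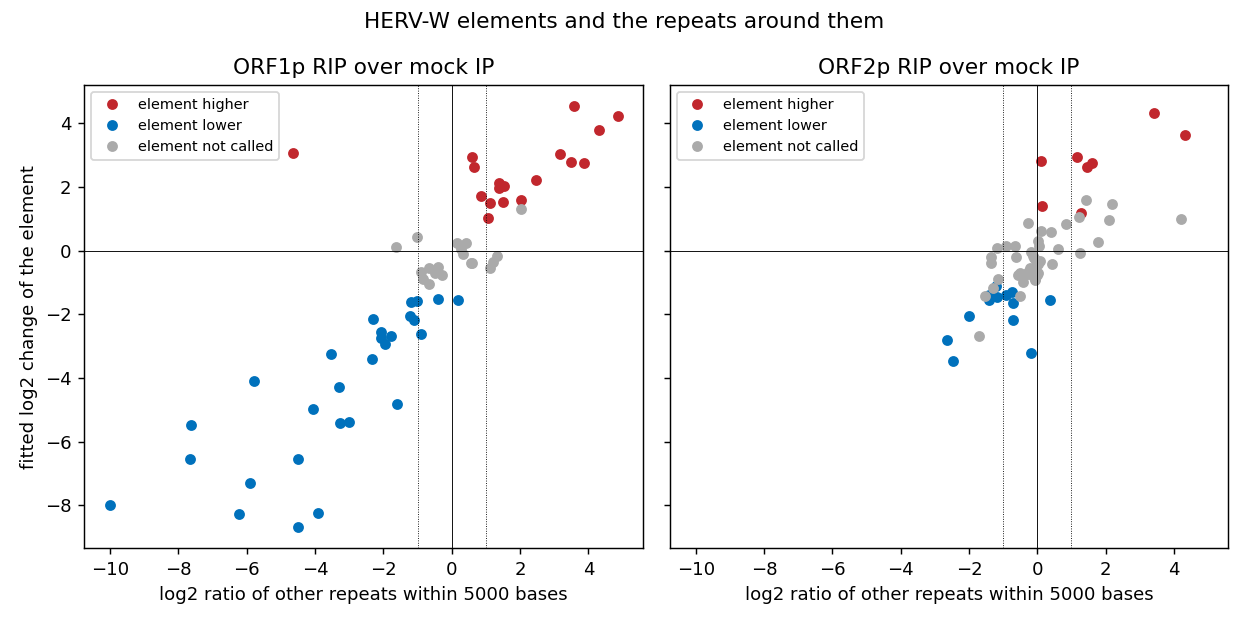
Fitted log2 change of each tested element (y axis) against the log2 ratio of mean CPM, with 0.01 CPM added, of other repeats within 5000 bases (x axis), in the ORF1p RIP (left) and the ORF2p RIP (right) over the mock IP. Dotted lines mark 2-fold; 39 of 46 called elements on the left and 13 of 21 on the right have neighbours past 2-fold in the same direction.

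Position relative to genes, which the choice of members did not use, also differed in the shares of reads. Elements inside a gene span on the gene's own strand held 30.2% ± 2.14 of member reads in the ORF1p RIP, 9.09% ± 0.972 in the ORF2p RIP, 19.0% ± 1.14 in the mock IP and 16.3% ± 1.09 in total RNA (SD, n = 4, 4, 3 and 6). Every ORF1p RIP library was above, and every ORF2p RIP library below, all mock IP and total RNA libraries. Elements on the opposite strand only held 23.4% ± 4.98 in the ORF1p RIP, 18.8% ± 1.73 in the ORF2p RIP, 32.7% ± 2.18 in the mock IP and 29.9% ± 4.06 in total RNA (SD). The first share includes the copy in SLC16A10, with 20.4% of all member reads in the ORF1p RIP, so it rests largely on 1 locus. Without that copy, left out after its level was seen, the share on the gene's own strand was 12.3% ± 0.928 in the ORF1p RIP, 7.79% ± 0.768 in the ORF2p RIP, 15.9% ± 1.11 in the mock IP and 13.2% ± 1.13 in total RNA (SD). The ORF1p RIP libraries then lay below all mock IP libraries and overlapped those of total RNA, and the ORF2p RIP libraries stayed below all others. The share on the opposite strand includes the copy in RIMKLB, with 19.5% of all member reads in the mock IP and 16.3% in total RNA. That copy averaged 4.44 CPM in the ORF1p RIP and 87.6 CPM in the mock IP. The difference of the ORF1p RIP in that share thus also rests largely on 1 locus, and shares without the copy in RIMKLB were not computed. The LTR17 in LINC01194, with 27.5% of member reads in the ORF2p RIP, is in neither share. Without it, left out after its level was seen, the opposite strand held 25.9% ± 2.11 in the ORF2p RIP and 34.2% ± 2.46 in the mock IP (SD). Without it and the copy in SLC16A10, the gene's own strand held 12.3% ± 0.95 in the ORF1p RIP and 10.8% ± 0.856 in the ORF2p RIP (SD). The mock IP was then at 16.7% ± 1.14 (SD). Whether the counting used the strand of reads is not stated, so an element and a transcript on the opposite strand cannot be told apart.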

How the data were processed

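Per the labels' protocols, RNA was eluted with TRIzol and sequenced after rRNA depletion. Per the submitters' processing notes, reads were aligned with STAR to hg38; the version and the counting program are not given in the sources used here. The authors deposited 1 table of expected counts per repeat locus, a unit read from its values. Of 60 columns, 43 matched no labelled sample and were not used. File starts count from 0 and were moved by 1.

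Counts were rounded, scaled by TMM factors of subfamily sums and tested with edgeR 4.0.16 (R 4.3.3), quasi-likelihood test, group only, on all 17 libraries and all rows passing filterByExpr (min.count 10 for subfamilies, 30 for loci and elements), with Benjamini-Hochberg adjustment over all rows. The SE is the log2 change divided by the root of F. Fits were tested on simulated data. DESeq2 1.42.0 was an alternative.

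Named elements were the one holding ERVW-1, the 6 with the highest mean CPM in each group, and the 3 largest and 3 smallest changes per comparison among called elements whose libraries did not overlap. Members, lists and tests were chosen with earlier results of these data known. Names and positions of genes come from RefSeq (GRCh38.p14), by span only. Intervals and floors cover counting error only.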

Additional observations from a re-analysis of the deposited data

Results flagged for a closer look

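In 8 of 80 groups of 4 or 6 libraries, 1 library lay far from the rest; chance flags about 1 in 20 groups. LTR17 was at 102 CPM in ORF1p RIP replicate 3, against 164 to 170 CPM in the other ORF1p RIP libraries. The same library was low for the element in NRCAM, at 4.04 CPM, and was the only one of its group with reads at the LTR17 2238 bases from LOC105369746, at 0.483 CPM. ORF1p RIP replicate 2 was low for the LTR17 in LINC01339, at 5.54 CPM, and was the only one of its group with a read at the LTR17 13967 bases from MIR3672, at 0.124 CPM. ORF2p RIP replicate 3 was high for the element in PRSS23, at 1.29 CPM. Total RNA replicate 3 was high for the LTR17 in LINC01194, at 43.9 CPM, and for the LTR17 2238 bases from LOC105369746, at 0.895 CPM.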

How the results depend on the processing

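Scaling by library totals in place of TMM shifted the median of all loci in the ORF2p RIP over the mock IP to -0.47, against -0.17 (log2). With it the HERV17-int change was -0.059 in the ORF2p RIP over the ORF1p RIP and -0.41 in the ORF2p RIP over total RNA, both with the sign turned. LTR17 turned to -0.065 in the mock IP over total RNA, and in the ORF2p RIP over the ORF1p RIP it was 0.91, under 2-fold (adjusted p = 0.00404). Member loci in the ORF2p RIP over the mock IP were then 5 higher and 16 lower, and 19 were lower over total RNA. Over all 122569 loci tested, the same counts were 18166 and 26756, and 41625. With only the compared groups in the fit, 14 member loci were lower in the ORF2p RIP over the mock IP, beside 18650 of all loci.

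Without the b libraries of total RNA, HERV17-int in the ORF1p RIP over total RNA turned to 0.27 and LTR17 in the ORF2p RIP over total RNA was 1.12, past 2-fold. Member loci were then 15 lower in the ORF2p RIP over the mock IP, 17 higher and 2 lower in the ORF2p RIP over total RNA, and 14 higher in the mock IP over total RNA. Over all 122569 loci tested, the same counts were 22919, then 30499 and 32648, and 20149. Without the bl libraries, HERV17-int turned to -0.55 in the ORF2p RIP and -0.24 in the mock IP, each over total RNA, LTR17 turned to -0.27 in the mock IP over total RNA, and the ORF2p RIP over total RNA had 5 member loci higher and 16 lower. Over all loci these counts were 27371 and 14781.

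The filter set how many loci were tested. At min.count 10, 69 member loci were lower in the ORF1p RIP over the mock IP, 64 higher and 31 lower in the ORF2p RIP over the ORF1p RIP, 31 higher and 63 lower in the ORF1p RIP over total RNA, and 16 lower in the ORF2p RIP over total RNA. Over all 379871 loci tested, the same counts were 103258, then 105159 and 99092, then 101211 and 109729, and 51935. How many members each filter passed is not given here. At min.count 100 the higher and lower member counts were 3 and 8 in the ORF1p RIP over the mock IP, 4 and 4 in the ORF2p RIP over the mock IP, 7 and 4 in the ORF2p RIP over the ORF1p RIP, 3 and 8 in the ORF1p RIP over total RNA, and 4 and 3 in the ORF2p RIP over total RNA. Over all 30330 loci tested they were 11831 and 11846, 9229 and 4609, 14196 and 8808, 11467 and 12623, and 9535 and 6349. With every locus of at least 10 reads the member counts were 38 and 105, 14 and 15, 101 and 67, 63 and 92, and 27 and 15 in the same comparisons, and 4 member loci were higher in the mock IP over total RNA. Over all 1429999 such loci they were 114710 and 161597, 36256 and 32865, 174811 and 182085, 175986 and 179205, and 74938 and 54734. In the mock IP over total RNA, 8772 of those loci were higher.

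Whether replicate numbers pair the libraries was not tested, since differently numbered pairs were not compared. Among 21 same-numbered pairs, the correlation of deviations ran from -0.44 to 0.43 and was above 0.1 in 10. With the replicate block, HERV17-int turned to -0.13 in the ORF2p RIP over total RNA and LTR17 to -0.048 in the mock IP over total RNA, and no count of loci moved by over 1.5 times. With it 5 calls of named elements were lost, among them the LTR17 near RPL6P21 in the ORF2p RIP over the mock IP (-2.66, adjusted p = 0.106).

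With each library left out in turn, HERV17-int ranged from -0.23 to 0.011 in the ORF1p RIP over total RNA and from -0.054 to 0.19 in the ORF2p RIP over total RNA. LTR17 ranged from -0.017 to 0.16 in the mock IP over total RNA, from 0.78 to 1.02 in the ORF2p RIP over total RNA and from 1.01 to 1.27 in the ORF2p RIP over the ORF1p RIP. Member loci higher in the ORF2p RIP over the mock IP ranged from 5, without mock IP replicate 2, to 10, and member loci lower over total RNA from 4, without total RNA replicate 2, to 8. Over all loci these 2 settings gave 17578 higher and 28617 lower, against 21268 and 25962 with all libraries. Member loci higher in the mock IP over total RNA ranged from 0 to 1.

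Of 2522 values of 94 called pairs of named element and comparison under all alternatives, 69 lost the call, in 18 pairs, and 0 turned sign. Some of these elements were named for their large changes, so a turned sign was unlikely and its absence says little. Within 20000 bases, neighbours moved the same way at 8 of 21 called elements in the ORF2p RIP over the mock IP, against 13 of 21 within 5000 bases. Most members had too few reads to be tested, and the cause of these changes was not tested.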
